A study of Tupaia belangeri with 2 samples.

Results

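APOE and CLU were followed across the cell classes of the embryonic tree shrew brain. Both were found by their names in the deposited gene annotation, where each belongs to a single gene model, evm.model.chr28.776 for APOE and evm.model.chr20.80 for CLU, so the pair makes up 2 of 23975 gene models. The cells came from the whole brains of 2 embryos of Tupaia belangeri, aged 4 to 5 weeks after conception, with no genotype, treatment or other condition that differs between them. Each embryo gave 1 droplet library made with the 10x Chromium 3′ kit (v3 chemistry), in which a unique molecular identifier (UMI) marks each captured transcript. The dura mater and the blood vessels were taken off before the tissue was dissociated, which limits these libraries as a sample of meningeal and vascular cells.

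Apolipoprotein E is the main lipid carrier secreted within the brain. It takes up cholesterol and phospholipid delivered by transporters such as ABCA1 and is bound by receptors of the low density lipoprotein receptor family. Clusterin, also called apolipoprotein J, is a secreted chaperone that travels in similar lipoprotein particles, binds several of the same receptors and blocks the final steps of the complement cascade. In the adult brain astrocytes are known as a major source of both proteins, and microglia are known to raise APOE when they take up debris and lipid.

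Of 18926 barcodes, 17735 had at least 200 genes detected and were kept as cells, 8408 from embryo 1 and 9327 from embryo 2, with a median of 3539 and 3169 UMIs. Haemoglobin transcripts took 28.7% of the UMIs of these cells in embryo 1 and 13.6% in embryo 2. The libraries share 18 barcode sequences, 17 of them among the cells kept. The cells were clustered without APOE, CLU and the genes of the pathway lists described further on, and clusters were named from marker genes, so every class is called "like" the type it resembles.

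The microglia-like class held 90 and 61 cells in 2 sub-clusters. In the deeper one 7 of the 9 microglia markers present in the annotation passed, among them CX3CR1, C1QB, CSF1R, TYROBP and AIF1, and so did 5 of 7 markers of border macrophages, the macrophages of the meninges and perivascular spaces. The larger and shallower sub-cluster, with 94 of the 151 cells, passed 4 of the 9 and 3 of the 7, with F13A1 among its leading genes. P2RY12, C1QA, C1QC and PTPRC are not names in the annotation. The radial glia-like class (795 and 642 cells) passed 8 of 11 markers, with PAX6, VIM, NES and SLC1A3 among them. The vascular class was small, with 23 and 35 cells, and passed 10 of 11 endothelial and 6 of 8 mural markers, together with 6 of 8 markers of meningeal fibroblasts. A further cluster of 205 and 222 cells passed 7 markers each of radial glia and of astroglia and was called astroglia-like because BCAN, an astroglial proteoglycan, stood among its leading genes. The neuron-like cells formed 4 classes and 54.0% of all cells.

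APOE was concentrated in the microglia-like cells. They made up 0.851% of the cells and held 89.5% of the APOE UMIs found in cells. The level in this class, given here and below as UMIs per 1000000 UMIs of the class (CPM), was 20450 in embryo 1 and 20496 in embryo 2, a mean of 20473 ± 32.5 CPM (SD, n = 2 embryos), from 4640 and 5806 APOE UMIs. The shallower sub-cluster (66 and 28 cells) had 12140.5 and 15349.5 CPM and the deeper one (24 and 33 cells) 25351.4 and 21537.7 CPM. The embryos thus differed in opposite directions in the sub-clusters, and the small SD of the class understates how far they differ. Only 1 gene model had more UMIs than APOE in the microglia-like cells of embryo 1, which put APOE at rank 2, and APOE was at rank 3 in embryo 2.

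A second tier, far below the microglia-like cells, was made of connective tissue, glial and choroid plexus cells. Meningeal fibroblast-like cells, which make the collagen of the brain's coverings, had 453 and 543 CPM. This class joined a deeper cluster of 87 cells, with 509 and 589 CPM, and a shallower one of 54 cells. The shallower cluster had 83.6 and 250 CPM, from 4 and 10 UMIs. Astroglia-like cells had 111 and 108 CPM. Choroid plexus-like cells, from the epithelium that makes cerebrospinal fluid and defined here by TTR, CLIC6 and FOLR1, had 58.1 and 114 CPM from 12 and 24 UMIs. The ranges of the astroglia-like and choroid plexus-like classes overlapped, whereas each of the other steps down to this point was larger than the difference between the embryos.

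The remaining classes formed a floor at which the order cannot be read. Dividing cell-like cells had 10.0 and 15.3 CPM, inhibitory neuron-like cells 13.2 and 9.33 CPM, and midbrain or thalamus excitatory neuron-like cells 7.40 and 14.6 CPM. Erythroid-like cells, the red blood cell lineage and a class that should lack APOE, had 7.28 and 8.77 CPM, made up of 11.7 and 27.9 CPM in its shallower cluster and 5.87 and 2.34 CPM in its deeper one. Haemoglobin UMIs count in the total of this class and lower its CPM, and no level without them was computed for it. Radial glia-like cells, the stem cells that line the ventricles, were at 6.72 and 4.11 CPM, from 24 and 12 UMIs. Their mean was 14.3 CPM when only cells with at least 1000 genes were kept. Those cells were clustered and named anew, so the class (then 685 and 639 cells) need not hold the same cells. The vascular class had 1 APOE UMI in embryo 1 (5.05 CPM) and 0 in embryo 2, where the limit for a count of 0 is 10.8 CPM. Each neighbour in this lower part of the order overlapped the next between the embryos.

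**Figure D1:**
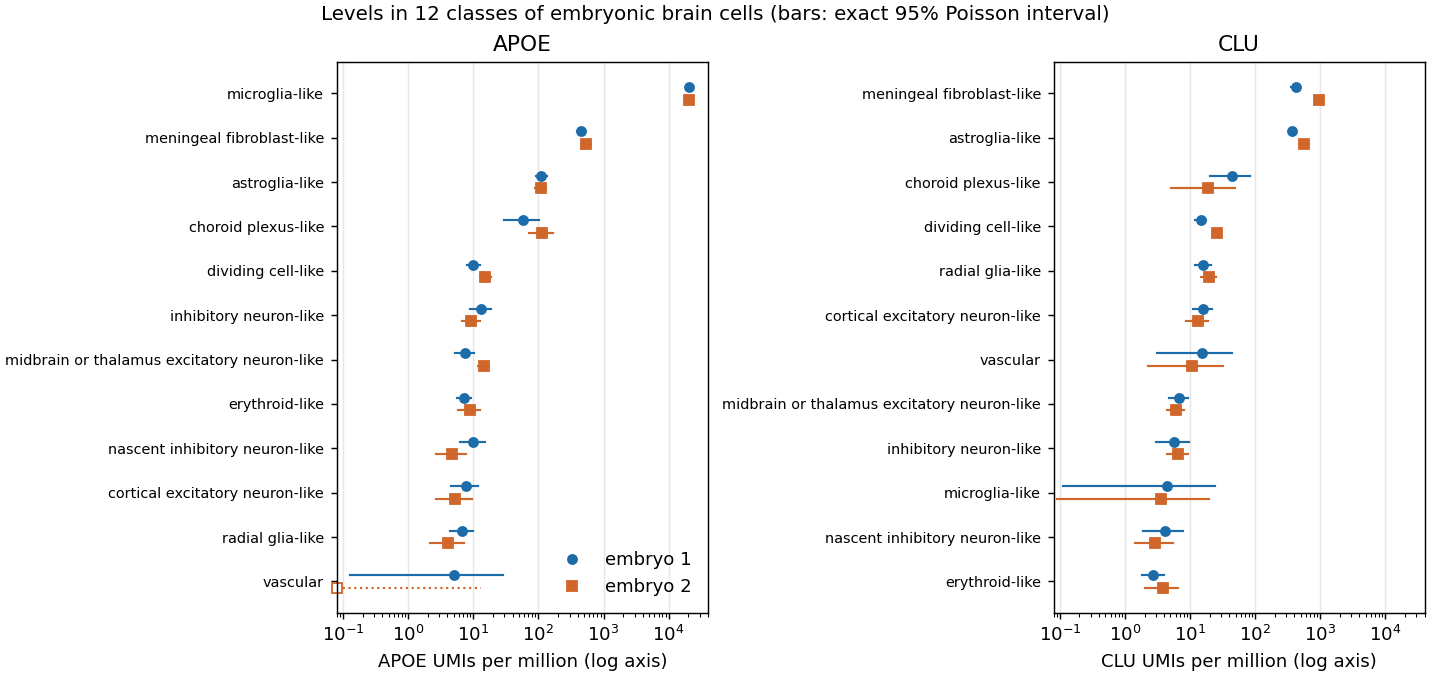
APOE (left) and CLU (right) in each of 12 classes, as UMIs per 1000000 UMIs on a log axis, with a point per embryo and bars for the exact 95% Poisson interval. An open symbol at the left edge is a count of 0. APOE stands at 20450 and 20496 in microglia-like cells and CLU is highest in the meningeal fibroblast-like and astroglia-like classes.

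The first question was how far microglia-like cells differ from radial glia, vessels and neurons in these genes. UMI sums per embryo and class were compared with edgeR over 10612 gene models, and the test takes the classes, which were formed from these same cells, as given. APOE was higher in microglia-like than in radial glia-like cells by 11.90 ± 0.19 (log2, SE, adjusted p = 4.0e-59), a call that 23.2% of all gene models tested also received in this comparison. With astroglia-like cells counted as radial glia-like the difference was 9.43, and with at least 1000 genes per cell 10.38. The ratio of the pooled levels was 3690 (95% counting interval 2663 to 5271). Against the neuron-like classes, averaged, the difference was 11.52 ± 0.10 (adjusted p = 4.8e-78), with 30.4% of gene models called and a pooled ratio of 2123 (1887 to 2396). The log2 difference gives each neuron-like class equal weight on scaled counts, while the pooled ratio weights them by their UMIs. These values therefore need not match. Against the vascular class the difference was 13.38 ± 0.29 (adjusted p = 3.0e-50, 14.3% of gene models called). The single vascular UMI leaves the pooled ratio of 9741 with an interval from 1748 to 384802. Each SE, here and below, is the size of the difference divided by the square root of the F value of its test. Where a class holds few UMIs, as here, it can be smaller than the counting error, and the interval is the better guide. In all 3 comparisons APOE was higher in microglia-like cells in both embryos. The median of all gene models lay at -0.28, 0.05 and -0.34 on the same log2 scale in the comparisons with radial glia-like, vascular and neuron-like cells, small beside these differences.

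Among radial glia-like, vascular and neuron-like cells APOE passed no comparison. Radial glia-like minus neuron-like was -0.38 ± 0.30 (adjusted p = 0.289, with 54.8% of gene models called). This value turned positive, 0.80 with an adjusted p of 0.0105, in cells with at least 1000 genes, which were clustered and named anew. Over the 11 alternatives of that comparison the adjusted p ran from 1.4e-18 to 0.359. Radial glia-like minus vascular was 1.48 ± 1.38 (adjusted p = 0.478, 28.2% called) and vascular minus neuron-like -1.86 ± 1.28 (adjusted p = 0.281, 33.2% called). With 1 UMI in the vascular class the pooled ratio of vascular to neuron-like cells has a counting interval from 0.0055 to 1.22, so this depth could not show a difference.

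CLU had another distribution, led by fibroblasts and astroglia. Meningeal fibroblast-like cells had 424 and 959 CPM (156 and 284 UMIs), and astroglia-like cells 363 and 557 CPM (359 and 625 UMIs). These ranges overlapped, so the order of these classes is not set by the levels. The deeper fibroblast-like cluster (87 cells) had 474 and 1096 CPM. The shallower one (54 cells) had 83.6 and 75.1 CPM, from 4 and 3 UMIs. Astroglia-like cells, 2.41% of the cells, held 46.6% of the CLU UMIs, and fibroblast-like cells, 0.795% of the cells, held 20.8%.

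Below them came choroid plexus-like cells at 43.6 and 18.9 CPM (9 and 4 UMIs), dividing cell-like cells at 14.5 and 26.0 CPM and radial glia-like cells at 16.0 and 19.2 CPM. Cortical excitatory neuron-like cells had 15.7 and 13.02 CPM and the vascular class 15.2 and 10.8 CPM, from 3 UMIs in each embryo. The other 3 neuron-like classes lay between 2.94 and 6.83 CPM, and erythroid-like cells, again the class that should lack the gene, had 2.73 and 3.80 CPM, with 10.03 and 12.8 CPM in the shallower cluster and 0.400 and 0.781 CPM in the deeper one. Haemoglobin UMIs lower the CPM of the erythroid-like class here too. CLU in microglia-like cells was within the range of the 3 neuron-like classes, with 1 UMI in each embryo (4.41 and 3.53 CPM), so the class with by far the most APOE UMIs held 0.0947% of the CLU UMIs.

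CLU was higher in radial glia-like than in neuron-like cells, by 1.68 ± 0.23 (log2, adjusted p = 1.3e-09) and in both embryos. The pooled ratio, which weights the neuron-like classes by their UMIs and not equally, was 2.47 (1.95 to 3.13). The log2 difference was 4.402 with astroglia-like cells counted as radial glia-like, and 1.44 to 1.79 under the other alternatives with a test. In this comparison 54.8% of gene models were called, and the cortical excitatory neuron-like class lay just below the radial glia-like level. It passed none of the other 5 comparisons among these 4 groups. Microglia-like minus radial glia-like was -2.13 ± 0.91 (adjusted p = 0.0808), and the pooled ratio of 0.225 had an interval from 0.0269 to 0.832. This value lay past the threshold under 4 of 11 alternatives, whose adjusted p ran from 2.8e-11 to 0.233. Microglia-like minus vascular was -1.51 ± 1.25 (adjusted p = 0.534) and microglia-like minus neuron-like -0.45 ± 1.11 (adjusted p = 0.811), where the median of all gene models was -0.34. Radial glia-like minus vascular was 0.62 ± 0.65 (adjusted p = 0.537) and vascular minus neuron-like 1.06 ± 0.76 (adjusted p = 0.304). With 2 microglia-like and 6 vascular UMIs, the ratio of these classes has a counting interval from 0.0307 to 1.74.

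Glial cells therefore split by class in both genes. Comparisons with astroglia-like, fibroblast-like and choroid plexus-like cells were added after the levels had been seen. Astroglia-like cells exceeded radial glia-like cells by 4.01 ± 0.26 for APOE (log2, adjusted p = 5.0e-22) and by 4.42 ± 0.17 for CLU (adjusted p = 1.7e-34), where 23.5% of gene models were called. With at least 1000 genes per cell the APOE difference was 2.65. Microglia-like cells exceeded astroglia-like cells by 7.89 ± 0.15 for APOE (adjusted p = 1.9e-53) and lay 6.55 ± 0.47 lower for CLU, a log2 difference of -6.55 (adjusted p = 5.4e-20, 21.7% called). The CLU value rests on 2 microglia-like UMIs, and the pooled ratio of 0.0084 had a counting interval from 0.00102 to 0.0305. Relative to astroglia-like cells the pair thus differed in opposite directions in both embryos.

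Fibroblast-like cells exceeded the vascular class by 7.80 ± 0.53 for APOE (log2, adjusted p = 1.4e-20) and 5.70 ± 0.36 for CLU (adjusted p = 3.5e-22), with 12.4% of gene models called. These differences rest on 1 APOE and 6 CLU UMIs in the vascular class, so their SEs can be too small. Fibroblast-like cells also exceeded astroglia-like cells in APOE, by 2.30 ± 0.17 (adjusted p = 1.3e-18, 19.4% called). For CLU the same difference was 0.66 ± 0.14 (adjusted p = 1.9e-04), and it did not pass without the embryo as a block (adjusted p = 0.0502), with DESeq2 (0.172) or with the highest doublet scores left out (0.786). Without those scores the cells were clustered and named anew, with 44 and 45 fibroblast-like cells in place of 80 and 61. Over the 9 alternatives the adjusted p of that difference ran from 4.5e-06 to 0.786. Choroid plexus-like cells exceeded the neuron-like classes by 3.68 ± 0.40 for APOE (adjusted p = 3.3e-12, 27.1% called) and 2.61 ± 0.60 for CLU (adjusted p = 3.9e-04). The CLU value rests on 9 and 4 choroid plexus-like UMIs. In embryo 2 the ratio of the CLU levels was 2.95, with a counting interval from 0.79 to 7.78.

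The astroglia-like class was itself uneven. Clustered again on its own it gave 3 sub-clusters, described here without a test because they were formed after the levels had been seen. Sub-cluster 2 (120 cells) was led by VCAM1 and BCAN, with CLU itself among its leading genes, and held GFAP, a filament gene of maturing astrocytes, at 39.2 and 9.15 CPM (12 and 3 UMIs). It passed 9 astroglia and 7 radial glia markers, whereas sub-clusters 0 and 1 passed more radial glia than astroglia markers (5 against 3 and 8 against 6), with at most 1 GFAP UMI per embryo and 0 of AQP4. Sub-cluster 2 had 209 and 250 CPM of APOE and 882 and 1326 CPM of CLU. Sub-cluster 1 (138 cells), led by BCAN and the growth factor receptor gene EGFR, had 164 and 208 CPM of CLU but 3.34 and 19.2 CPM of APOE, from 1 and 7 UMIs. Sub-cluster 0 (169 cells), led by MGP and the patterning signals FGF8 and FGF17, had 117 and 74.5 CPM of APOE and 104 and 265 CPM of CLU. CLU was present in all 3 sub-clusters, and APOE in sub-cluster 1 was near the level of the floor classes.

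The radial glia-like class gave 5 sub-clusters, all low in both genes. Sub-cluster 3 (236 cells), with DLX1 and DLL3 among its leading genes, passed 0 radial glia markers, and the others passed 4 to 9. It held the lowest CLU, 6.29 and 5.19 CPM, from 3 UMIs in each embryo. APOE had 0 to 8 UMIs per sub-cluster and embryo, and CLU ranged from 5.19 to 29.2 CPM over the sub-clusters and embryos, so no sub-cluster of radial glia-like cells reached the lowest astroglia-like value of CLU.

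**Figure D2:**
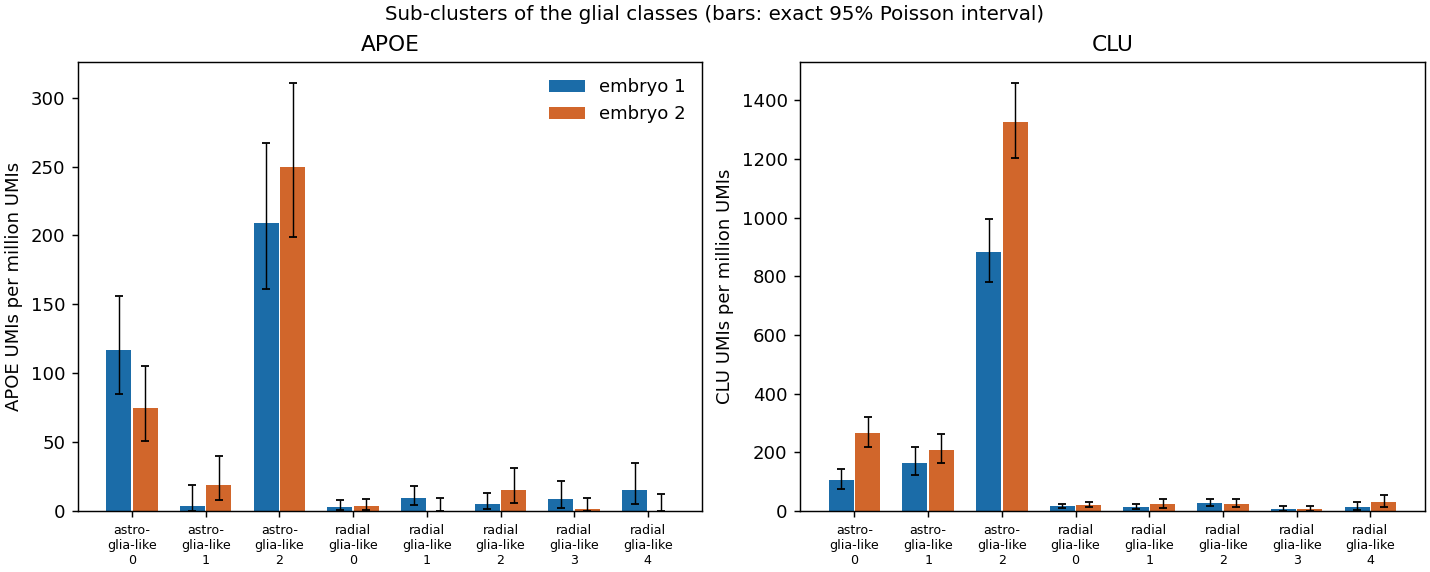
APOE (left) and CLU (right) in the sub-clusters of the astroglia-like and radial glia-like classes, as UMIs per 1000000 UMIs, with a bar per embryo and error bars for the exact 95% Poisson interval. Sub-cluster 2 of the astroglia-like class has the highest bars of both genes (209 and 250 for APOE, 882 and 1326 for CLU).

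Within the microglia-like class APOE was far from uniform. The share of a cell's UMIs taken by APOE ran from 0 to 15.4%, with a median of 0.293% over 151 cells. No APOE UMI was found in 44 of the cells, while 57 had at least 1% and 20 at least 5%. Most of the cells without APOE, in each embryo, also had 0 UMIs of C1QB, a gene used to name the class. Among them were cells of 10155 UMIs in embryo 1 and 21379 UMIs in embryo 2. Whether such cells are microglia was not tested. The 57 cells with at least 1% held 95.6% of the APOE UMIs of the class.

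The cells were also separated by UMIs of MRC1, LYVE1 and F13A1, 3 of the 7 markers of border macrophages in the annotation. This rule was chosen after the values had been seen, so it is given as a description with no test. With the whole list of markers the separation was far smaller, as given below. Cells with no UMI of the 3 genes (60 and 40 cells) had 33270 and 32031 CPM of APOE, and 31 and 24 of them reached 1%. Cells with at least 2 such UMIs (22 and 17 cells) had 1250 and 1752 CPM, and 0 of them reached 1%. These values did not overlap between the embryos. The pooled level of the cells with at least 2 such UMIs was above that of every other class, but it rested on few cells. Their median APOE share was 0 in embryo 1 and 0.0861% in embryo 2, and 12 and 5 of them had no APOE UMI. In embryo 1 a cell of 10614 UMIs held 62 APOE UMIs.

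C1QB, a complement subunit gene used to name the class, did not follow this separation. It had 2516 and 2812 CPM in cells without the border macrophage UMIs and 2203 and 3024 CPM in cells with at least 2 of them. AIF1, a cytoskeletal gene of macrophages, had 3259 and 2504 CPM against 3169 and 2805 CPM. C3, the central complement protein, did follow it, with 508 and 378 CPM in cells without the UMIs and 0 in the others in both embryos. LPL, which hydrolyses lipoprotein triglyceride, had 309 and 303 CPM in the cells without them. With the whole list of markers, cells with no UMI held 42 and 29 C3 UMIs (404 and 445 CPM) and 26 and 12 LPL UMIs (250 and 184 CPM). The class held more UMIs of both genes than these, so part of both lay in cells with a border macrophage UMI.

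Depth differed between these cells, with a median of 1129 and 2405 UMIs in cells without the border macrophage UMIs and 2066 and 4831 in cells with at least 2. Thinning to 2000 UMIs each left 21 and 22 of the former and 9 and 11 of the latter. The APOE levels were then 32833 and 38750 CPM against 667 and 2182 CPM, and 1 of the latter cells reached 1%. In embryo 1 the latter held 12 APOE UMIs, 11 of them in 1 cell. With the whole list of border macrophage markers in place of the 3 genes, cells with no UMI had 23381 and 29793 CPM, cells with 1 UMI 44677 and 24028 CPM, and cells with at least 2 UMIs 9010 and 15121 CPM. Of the last, 2 and 5 cells reached 1% APOE. The separation was thus far smaller with the longer list, which also holds STAB1 and PF4, and the cells with 1 UMI were not intermediate in embryo 1.

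**Figure D3:**
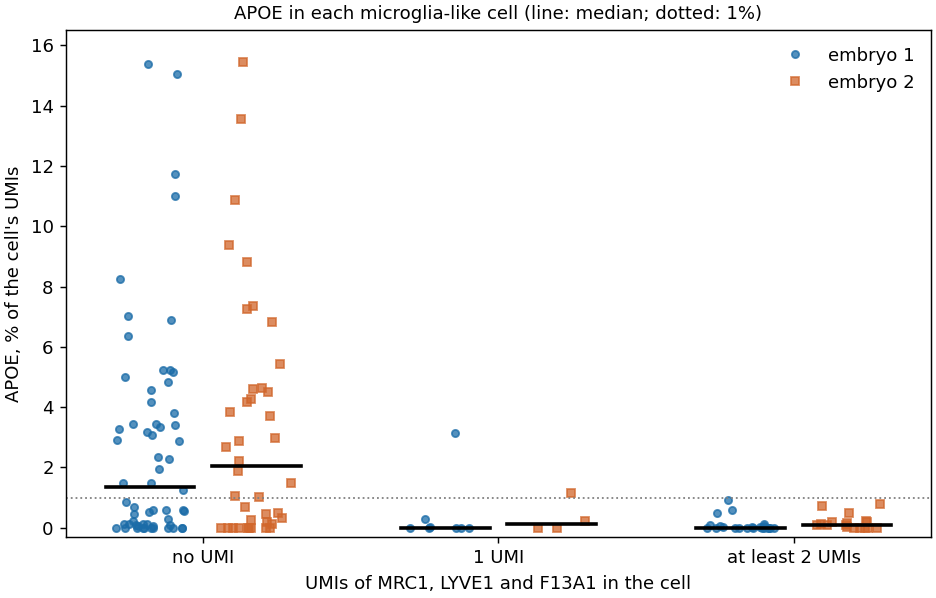
The percent of a cell's UMIs that were APOE in each microglia-like cell of embryo 1 (circles) and embryo 2 (squares), by the UMIs of MRC1, LYVE1 and F13A1 in the cell. Black lines are medians, and cells above 1% (dotted line) lie among those with no UMI, 31 and 24 cells, apart from 1 cell per embryo with 1 UMI. With the whole list of border macrophage markers, not drawn, 2 and 5 of the cells with at least 2 UMIs reached 1%.

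Free RNA in droplets can give UMIs of a gene to cells that do not make it, so APOE was set beside transcripts of genes that microglia use. Of the complement genes meant for this, C1QB is the only one named in the annotation, and TYROBP, AIF1 and CTSS were added to it. In microglia-like cells there were 2.63 and 2.56 APOE UMIs for each UMI of these 4 genes. At that ratio the 50 and 75 UMIs of the 4 genes in the neuron-like classes correspond to 120% and 110% of the APOE counted there. In radial glia-like cells they correspond to 98.6% and 149%, from 9 and 7 UMIs. With C1QB alone the shares were 64.4% and 71.5% in neuron-like cells and 111% and 245% in radial glia-like cells, the latter from 3 and 4 UMIs. In erythroid-like cells the shares were 153% and 42.7% with the 4 genes, from 42 and 5 UMIs, and 49.2% and 98.1% with C1QB alone. In dividing cell-like cells they were 96.0% and 49.1% with the 4 genes and 71.8% and 52.0% with C1QB alone. How near these classes stood to the ratio of microglia-like cells thus depended on the genes used and on the embryo. The part of free RNA in these values was not tested.

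The second tier did not keep that ratio. The 4 genes correspond to 1.58% and 1.59% of the APOE counted in meningeal fibroblast-like cells, with 1 UMI of them in each embryo. In choroid plexus-like cells they had 0 UMIs. In astroglia-like cells they correspond to 4.78% and 19.0%, from 2 and 9 UMIs, and C1QB alone to 8.05% and 30.4%.

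**Figure D4:**
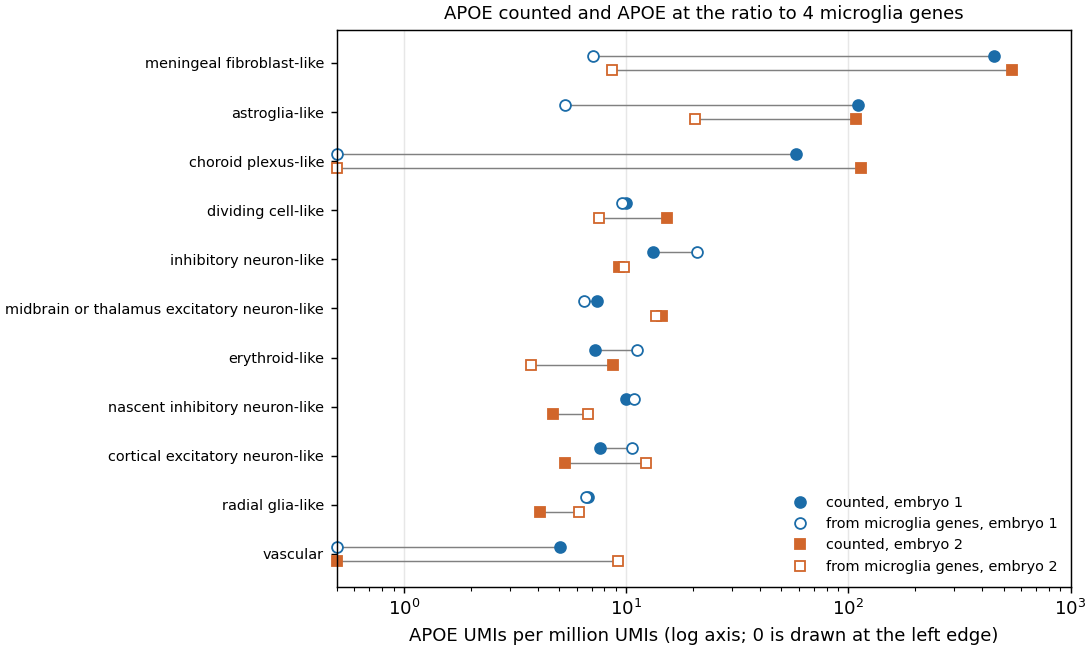
APOE counted (filled) in each class and the APOE that the UMIs of C1QB, TYROBP, AIF1 and CTSS correspond to at the ratio of the microglia-like class (open), as UMIs per 1000000 UMIs on a log axis, with circles for embryo 1 and squares for embryo 2. In the neuron-like and radial glia-like classes the open symbols correspond to 87.7% to 233% of the APOE counted. The pairs lie farther apart in the fibroblast-like, astroglia-like and choroid plexus-like classes, where the open symbols correspond to at most 19.0%.

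A few cells outside the microglia-like class were rich in APOE. At least 20 APOE UMIs were found in 8 of them. Of these, 4 were meningeal fibroblast-like and 2 were dividing cell-like cells with 31 and 39 APOE UMIs and 0 UMIs of the 4 microglia genes. The remaining 2, in cluster 4 of the midbrain or thalamus excitatory neuron-like class of embryo 2, had 27 and 30 APOE UMIs with 5 and 2 UMIs of C1QB. Without cells of at least 20 APOE UMIs, left out after their values were seen, the dividing cell-like level in embryo 2 was 4.50 CPM in place of 15.3 CPM, and the fibroblast-like level was 305 and 391 CPM. Cluster 4 had 28.9 CPM of APOE in embryo 2 against 7.29 CPM in embryo 1. Without cells that carry at least 2 UMIs of the 4 genes, the mean level of the neuron-like classes was 7.66 CPM in place of 9.55 CPM.

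Shares of cells with a UMI gave the same picture as the levels. With each cell thinned to 1000 UMIs, 68.3% of 60 and 70.0% of 50 microglia-like cells had an APOE UMI (without thinning, 68.9% and 73.8%), with exact 95% binomial intervals of 55.0% to 79.7% and 55.4% to 82.1%. Thinning left out 30 and 11 cells of that class. The thinned share was 6.90% and 5.45% in astroglia-like cells and 0.905% and 0.655% in neuron-like cells. It was 0.541% and 0.364% in erythroid-like cells, the background class, where haemoglobin takes part of the 1000 UMIs and so lowers the share. The shallower erythroid-like cluster had 0.974% and 1.09%, from 3 and 1 cells, above the neuron-like shares, and the deeper one 0.324% and 0. In radial glia-like cells it was 0.885% and 0, and the 0 of 639 cells in embryo 2 allows up to 0.576% of cells with a UMI at that depth, which is no limit on cells that express the gene. The share there was 1.63% and 0.806% at 2000 UMIs and 2.77% and 1.56% without thinning. In neuron-like cells it was 1.75% and 1.38% at 2000 UMIs. The background share in erythroid-like cells rose as well, to 1.37% and 0.408% at 2000 UMIs and 2.94% and 3.56% without thinning. Their median depth was greater than that of radial glia-like cells, 9092 and 10688 against 3950 and 4000 UMIs.

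For CLU the thinned share was 20.2% and 31.4% in astroglia-like cells (without thinning, 48.3% and 50%). In radial glia-like cells it was 1.26% and 1.10%, and in erythroid-like cells 0.216% and 0. At 2000 UMIs the radial glia-like share was 3.53% and 4.03% and the erythroid-like share 0.497% and 0.408%. None of the microglia-like cells thinned to 1000 UMIs had a CLU UMI, which allows up to 5.96% and 7.11% of cells with a UMI at that depth. At 2000 UMIs 0 of 31 and 1 of 35 had one. Median UMIs per cell before thinning were 4060 and 4091 in astroglia-like, 9092 and 10688 in erythroid-like and 1385 and 2801 in microglia-like cells.

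APOE and CLU were also counted together in single cells. Of 203 and 220 thinned astroglia-like cells, 35 and 61 had CLU alone, 8 and 4 had APOE alone and 6 and 8 had both. Of 66 and 49 thinned fibroblast-like cells, 4 and 7 had both. No thinned radial glia-like cell had both.

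Receptors of the particles were compared from a list of 14 genes, of which 13 could be tested. In microglia-like against radial glia-like cells 3 were higher and 1 was lower, where 11.3% of all gene models were higher and 11.9% lower, with a list median of -0.30 (log2) beside -0.28 for all gene models. SORL1, a sorting receptor that binds APOE, had 52.9 and 28.2 CPM in microglia-like cells and 3.08 and 2.40 CPM in radial glia-like cells (log2 difference 3.88 ± 0.58, adjusted p = 9.4e-08). LRP1, a large endocytic receptor, had 8.81 and 17.7 CPM against 3.08 and 1.37 CPM (2.70 ± 0.84, adjusted p = 0.0115). LSR, the lipolysis-stimulated receptor of tight junctions, was lower, at 4.41 and 10.6 CPM against 53.8 and 42.5 CPM. In microglia-like cells 3 UMIs make 13.2 and 10.6 CPM. LRP1 in embryo 1 and LSR in both embryos thus rested there on 3 UMIs or fewer.

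The vascular class held other receptors. Against the neuron-like classes 6 of 13 were higher and 0 were lower (17.2% and 16.1% of all gene models), with a list median of 1.26 beside -0.29 for all gene models. LSR had 232 and 274 CPM there and 12.03 and 9.06 CPM in the neuron-like classes (4.87 ± 0.23, adjusted p = 3.6e-30). LRP8, the APOE receptor 2 of neurons, had 25.3 and 32.4 CPM in the vascular class against 2.80 and 3.43 CPM in radial glia-like cells. In the vascular class 3 UMIs make 15.2 and 10.8 CPM. Astroglia-like cells exceeded radial glia-like cells in LRP2, or megalin, an endocytic receptor that takes up clusterin, with 31.3 and 21.4 CPM (log2 difference 2.66 ± 0.41, adjusted p = 2.4e-07).

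Enzymes and transporters that load and remodel lipoproteins were higher in microglia-like cells for 5 of the 11 tested members and lower for 1, against radial glia-like cells (11.3% and 11.9% of all gene models), with a list median of 1.73 beside -0.28. LPL had 190 and 201 CPM in microglia-like and 1.12 and 1.71 CPM in radial glia-like cells (7.14 ± 0.37, adjusted p = 9.9e-28). The vascular class held LPL at a like level, 232 and 212 CPM, unlike APOE. PLTP, the phospholipid transfer protein, had 57.3 and 81.2 CPM in microglia-like, 54.5 and 61.5 CPM in astroglia-like and 120 and 169 CPM in fibroblast-like cells. SREBF2, the main regulator of cholesterol synthesis genes, was the lower member, with 0 and 7.06 CPM in microglia-like and 24.1 and 23.7 CPM in radial glia-like cells.

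Of 14 other apolipoproteins 10 are named in the annotation and 2 could be tested. APOC1, a small exchangeable apolipoprotein, followed APOE into the microglia-like class, with 168 and 63.5 CPM against 0.164 and 0.231 CPM in the neuron-like classes. APOD, a lipocalin, was found instead in the vascular class at 15.2 and 25.2 CPM, where 3 UMIs make 15.2 and 10.8 CPM. In fibroblast-like cells it had 24.4 and 37.1 CPM, and in microglia-like cells 0 UMIs.

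Complement genes, whose terminal complex clusterin blocks, were tested for 9 members. Against the neuron-like classes 3 were higher in microglia-like cells and 0 were lower (16.1% and 14.3% of all gene models), with a list median of 0.80 beside -0.34. C3 had 304 and 230 CPM in microglia-like cells and at most 3.03 CPM in astroglia-like cells. Fibroblast-like cells, one of the 2 classes richest in CLU, exceeded astroglia-like cells in 5 of the 9 and were lower in 0 (9.79% and 9.63% of all gene models). C1R, a protease that starts the classical pathway, had 206 and 223 CPM there. VTN, vitronectin, an inhibitor of the terminal complex, had 278 and 216 CPM in the vascular class, where CLU rested on 3 UMIs per embryo.

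Cholesterol synthesis genes differed by the class they were set against. In microglia-like against radial glia-like cells 5 of 10 were lower and 0 were higher, where 11.9% and 11.3% of all gene models were, with a list median of -1.22 beside -0.28. FDPS, farnesyl diphosphate synthase, had 110 and 138 CPM in microglia-like and 371 and 487 CPM in radial glia-like cells (-1.71 ± 0.18, adjusted p = 1.5e-12). Against the vascular class 0 were lower and 1 was higher, HMGCS1, by 2.10 ± 0.54 (adjusted p = 0.0030), with a list median of 1.11 beside 0.05 and 6.79% and 7.5% of all gene models lower and higher. Astroglia-like cells exceeded radial glia-like cells in 6 of 10 and were lower in 0 (11.2% and 12.2% of all gene models), with a list median of 0.74 beside -0.02. HMGCS1, which makes the precursor of mevalonate, had 504 and 367 CPM in astroglia-like and 120 and 123 CPM in radial glia-like cells (1.56 ± 0.12, adjusted p = 7.7e-18).

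Over the 21 clusters, whose cells come from the same 2 libraries and differ in depth, the 5 gene models most like APOE among 6208 with at least 500 UMIs were DAB2, PYCARD, AIF1, PEPD and PMP22. Pearson's r of log2(CPM + 1) was 0.877 for DAB2 and 0.838 for PMP22. The 5 most like CLU were NTRK2, FSTL1, ALCAM, WNT5A and TWSG1, with r from 0.883 to 0.828. APOE and CLU had an r of 0.138 with each other, so neither was among the genes most like the other.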

How the data were processed

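Single-cell libraries of 2 tree shrew embryos were analysed. Per the labels and the study's methods, the authors checked reads with fastp, ran Cell Ranger 3.1.0 with default settings against the TS_2.0 assembly, and went on with Seurat 3. They deposited UMI counts per gene model and barcode, raw and without normalization, 41868023 UMIs in embryo 1 and 38077767 in embryo 2. Coordinates and sequences were not used here.

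Cells with at least 200 genes were scaled to 10000 UMIs, log-transformed and clustered (Python 3.11.15, scanpy 1.11.5, leidenalg 0.10.2; 2000 variable genes, 20 components, 20 neighbours, resolution 0.5). Clusters with 3 or more markers of several non-neuronal types were clustered again. A marker counted when detected in at least 10% of cells and 2 times higher than elsewhere, a name needed 3 markers, and ties went to the type with more markers among the 10 leading genes. These naming steps were set after the clusters had been seen. Doublets were kept. Scrublet called 0 and 1 cells, so as an alternative the 566 and 696 highest scores were left out.

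UMI sums per embryo and class (11 classes with at least 20 cells per embryo, without the erythroid-like) entered the quasi-likelihood test of edgeR (version 4.0.16; R version 4.3.3), with filterByExpr, TMM factors, the embryo as a block and Benjamini-Hochberg adjustment over 10612 gene models (threshold 0.05). The classes of an embryo come from the same animal, which is where the pairing comes from, and over 55 pairs of classes the embryo deviations correlated by 0.0026 to 0.34 (median 0.0752). With the embryo as a block, a shift shared by all classes of a library is taken out. The p-values therefore measure how unevenly the classes differ between these 2 libraries, and not the spread between animals. Each animal gave 1 library. The procedure was tested on simulated data for the comparison of microglia-like with neuron-like classes. It recovered 93.5% of 200 genes changed 4-fold, with 15.4% of calls false among 10003 genes and a median of -0.18 (log2) for unchanged genes. The false share was above the threshold of 0.05. The simulation changed a far smaller part of the genes than the 30.4% called in the data, so its rates need not hold there. Levels carry exact 95% Poisson intervals, shares exact binomial ones, and the limit for a count of 0 is 3 counts. All cover counting error only.

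The genes named are APOE and CLU, the 2 members of each pathway list with the largest change each way past the threshold in a comparison, a selection of which is printed, and the 5 genes most like each of the pair. APOC1, APOD, LPL, PLTP and C3 are also given where no threshold applies, and AIF1, CTSS, TYROBP, MRC1, LYVE1 and F13A1 were chosen after their values were seen. The members and lists were chosen with earlier results of these data known. Alternatives were RLE size factors, library totals, no filter on gene models, no block, DESeq2 1.42.0, at least 1000 genes per cell, a resolution of 1.0, 30 components, doublet scores, means over cells, haemoglobin UMIs left out, thinning to 2000 UMIs and each embryo left out. For at least 1000 genes, a resolution of 1.0, 30 components and doublet scores the cells were clustered and named anew. Classes of the same name can then hold other cells. Added after seeing the data were astroglia-like cells counted as radial glia-like, and cells with microglia UMIs, or with at least 20 APOE UMIs, left out of the other classes.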

Additional observations from a re-analysis of the deposited data

Results flagged for a closer look

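APOE was also present in barcodes that no comparison used, those with fewer than 200 genes. In embryo 1 there were 29 APOE UMIs in 833 such barcodes, 7.89 CPM, and in embryo 2 there were 4 in 358 barcodes, 1.75 CPM. Both counts are above the limit of 3 that a count of 0 allows. Haemoglobin made up 92.7% and 94.4% of the UMIs of these barcodes. CLU had 3 and 1 UMIs there, which is not above the limit.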

How the results depend on the processing

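Over all comparisons and alternatives 198 values kept their direction and side of the threshold, 7 newly passed it, 3 no longer did and 2 reversed. Astroglia-like cells counted as radial glia-like, an alternative added after the data were seen, raised APOE in the radial glia-like class against the vascular class to 3.92 (log2), reversed it against the neuron-like classes to 1.96, and moved CLU to -5.00 in microglia-like against radial glia-like cells and to 3.43 in radial glia-like against vascular cells, all past the threshold. APOE in radial glia-like against neuron-like cells was -0.62 with library totals, then past the threshold, and reversed to 0.80 in cells with at least 1000 genes. CLU in microglia-like against radial glia-like cells passed with no filter on gene models (-2.30), with at least 1000 genes (-2.90) and without the highest doublet scores (-3.14). CLU in fibroblast-like against astroglia-like cells was not past the threshold without the replicate block (0.68), with DESeq2 (0.79) or without the highest doublet scores (0.086). The block changed no other call of 22, since 21 were the same without it. The causes of these changes were not tested. Embryos left out one at a time (values on the log2 scale, without replicate 1 and without replicate 2, no test) gave for APOE 12.36 and 11.60 in microglia-like against radial glia-like, 11.71 and 11.37 against neuron-like, 4.48 and 3.71 in astroglia-like against radial glia-like and 4.22 and 3.02 in choroid plexus-like against neuron-like cells. Against the vascular class APOE has a value only without replicate 2, 12.19 for microglia-like and 6.50 for fibroblast-like cells, since embryo 2 had no vascular APOE UMI. For CLU they gave 1.84 and 1.39 in radial glia-like against neuron-like, 4.64 and 4.18 in astroglia-like against radial glia-like, 6.34 and 4.83 in fibroblast-like against vascular, 0.85 and 0.40 in fibroblast-like against astroglia-like, 1.93 and 2.9985 in choroid plexus-like against neuron-like and -6.98 and -5.98 in microglia-like against astroglia-like cells.

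The APOE level of microglia-like cells moved to 21701 CPM with at least 1000 genes, 20657 with 30 components, 22496 without the highest doublet scores, 20822 as a mean over cells and 20817 without haemoglobin. With at least 1000 genes APOE was 14.3 CPM in radial glia-like and 10.5 in neuron-like cells. In all cells kept, the neuron-like level was 7.66 without those carrying microglia UMIs. Means over cells were 9.56 (APOE, vascular), 26.3 (CLU, vascular) and 3.02 (CLU, microglia-like). Without the highest doublet scores CLU in microglia-like cells was 2.51. Of 12 thinned shares 9 moved at 2000 UMIs. With at least 1000 genes the vascular and choroid plexus-like classes, and with 30 components the astroglia-like class, could not be compared. Depth limits APOE in the vascular class (1 UMI) and CLU in the vascular (6 UMIs), microglia-like (2 UMIs) and choroid plexus-like classes (13 UMIs).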
